A study of Mus musculus with 17 samples.

Results

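Iron and heme handling was followed through 10 genes, chosen by their symbols from the 22859 genes of the combined count table: Hmox1, Blvra and Blvrb of heme breakdown, Slc40a1 of iron export, Fth1 and Ftl1 of iron storage, Ncoa4 of ferritin turnover, Tfrc of iron uptake, Slc11a1 of phagosomal metal transport and Ireb2 of iron sensing. All 10 were in the table, and all 10 passed the filter on low counts, which left 15272 genes for testing. Bulk RNA-seq was done on 17 libraries of sorted synovial macrophages, from the lining tissue of joints, in adult mice labelled Fcgr2b-KO. Fcgr2b encodes the inhibitory Fc receptor for immunoglobulin G, and every group carried this genotype, the controls included, so no group had the intact gene. For each of 3 subsets, named here after the study as LYVE1+CX3CR1+ (labelled Lyve1), MHCII+CD11c- (labelled IAIE) and MHCII+CD11c+ (labelled CD11c), mice were either controls, whose titles read Healthy, or had received immune complexes (IC; ovalbumin bound by rabbit antibodies to it) into a vein 8 h earlier. Each group held 3 libraries, except MHCII+CD11c+ macrophages after IC, which held 2. Whether a library came from 1 mouse or from several pooled mice was not stated, so the p-values measure the spread between libraries.

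Macrophages take up heme with dying red cells and other debris and break it down with heme oxygenase, which releases iron, carbon monoxide and biliverdin. The freed iron is stored inside the ferritin shell or leaves the cell through ferroportin, the product of Slc40a1. Much of this is set after transcription: when iron is scarce, iron regulatory proteins bind a hairpin in the mRNA, the iron-responsive element, which blocks translation when it lies in the 5' untranslated region (UTR) and stabilizes the mRNA when it lies in the 3' UTR. The RNA levels below therefore do not give protein levels for ferritin or ferroportin.

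The transcripts of the 10 genes were searched for this element to sort them by mode of control. The genes were chosen for iron and heme handling, so matches among them were likely from the start and are not a finding. The search asked for a C, any 5 bases and the loop CAGTGN, closed by 5 pairs (G-T pairs allowed), on the transcript strand only, in the GENCODE M21 transcript with the longest coding sequence (GRCm38, the build that mm10 denotes). It matched the 5' UTR of Slc40a1, Fth1 and Ftl1 and, at 4 places, the 3' UTR of Tfrc, and no UTR of the other 6 genes. Among all coding genes, 0.093% of 20433 held a match in the 5' UTR and 0.504% of 20636 in the 3' UTR, and 1 gene, Tfrc, held 3 or more in the 3' UTR. The 7 windows of 30 bases follow, 5' to 3', with the 6-base loop in capitals.
Slc40a1, 5' UTR, chr1:45925464-45925493, minus strand: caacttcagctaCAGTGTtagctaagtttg
Fth1, 5' UTR, chr19:9982732-9982761, plus strand: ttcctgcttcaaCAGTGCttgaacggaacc
Ftl1, 5' UTR, chr7:45459778-45459807, minus strand: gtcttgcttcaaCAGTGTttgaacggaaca
Tfrc, 3' UTR, chr16:32631219-32631248, plus strand: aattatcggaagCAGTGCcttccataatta
Tfrc, 3' UTR, chr16:32631598-32631627, plus strand: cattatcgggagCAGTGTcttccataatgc
Tfrc, 3' UTR, chr16:32631663-32631692, plus strand: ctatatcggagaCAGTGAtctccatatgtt
Tfrc, 3' UTR, chr16:32631710-32631739, plus strand: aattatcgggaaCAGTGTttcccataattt
A match is a description of these letters, not evidence of binding in these cells.

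**Figure D1:**
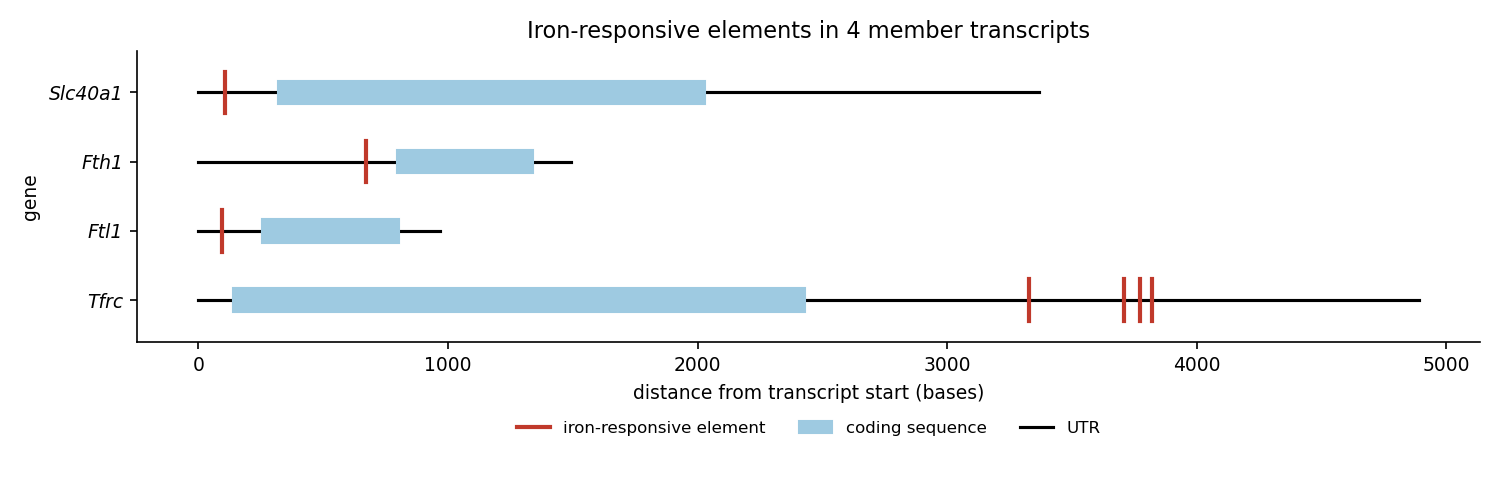
Map of the 4 transcripts that matched the iron-responsive element search, drawn to scale in bases from the transcript start, with coding sequence as boxes and untranslated regions as lines. Ties in coding length went to the longer transcript. The Fth1 transcript drawn has 1494 bases, 795 of them 5' UTR, against a median of 929 for its coding transcripts. The distance of its mark from the start holds for this transcript only. The red marks lie before the coding sequence in Slc40a1, Fth1 and Ftl1 and after it in Tfrc, which has 4.

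The libraries held 2301913 to 7248939 counts each. LYVE1+CX3CR1+ libraries after IC were the shallowest group, at 2301913 to 3348248. The sorted populations carried the CD11c and MHC class II markers of their labels: Itgax, which encodes CD11c, was 275 to 443 CPM (counts scaled to a fixed library total) in MHCII+CD11c+ libraries and at most 16 CPM in all others. The summed level of the 4 MHC class II genes listed was 11130 CPM or more in all MHCII+ libraries and at most 156 CPM in LYVE1+CX3CR1+ libraries. The 5 LYVE1+CX3CR1+ genes listed (Lyve1, Cx3cr1, Timd4, Folr2 and Vsig4) summed to 3552 CPM or more in LYVE1+CX3CR1+ libraries. Their sum was at most 3293 CPM in MHCII+CD11c- and 581 CPM in MHCII+CD11c+ libraries. Against MHCII+CD11c- macrophages, 0 of these 5 were called, in controls or after IC. Against MHCII+CD11c+ macrophages, 4 were called higher in controls and 3 after IC. Fcgr2b itself had 69.3 to 248 CPM in every library, and since the table gives 1 value per gene, these counts do not check the deletion. MHCII+CD11c- control library 2, MHCII+CD11c- IC library 1 and MHCII+CD11c+ control library 2 had 306, 541 and 81.2 CPM of Vsig4, a gene of LYVE1+CX3CR1+ macrophages, against at most 29 CPM in the other MHCII+CD11c- controls, 144 CPM in the other MHCII+CD11c- IC libraries and 1.06 CPM in the other MHCII+CD11c+ controls. The 2 MHCII+CD11c+ libraries after IC had 99.9 and 16.7 CPM, so IC library 1 lay above the high control. Other genes of LYVE1+CX3CR1+ macrophages marked the first 3 libraries only in part. Lyve1 was highest of its group in both control libraries named, at 1131 and 382 CPM. In MHCII+CD11c- IC library 1 it was 2337 CPM, below IC library 3 at 2458 CPM. Timd4 was highest of its group in none of the 3. In MHCII+CD11c- control library 2 Timd4 was lowest, at 46.1 against 80.4 and 148 CPM. The choice thus rests on Vsig4 alone. Counts called from the marker lists and from a wider list of iron and heme genes are given with all libraries only. For the 10 genes, each count called below is also given for 2 fits chosen after seeing the data. The first leaves out the first 3 libraries named for high Vsig4. The second leaves out those 3 and MHCII+CD11c+ IC library 1. The second leaves MHCII+CD11c+ macrophages after IC with 1 library, which is then assumed to vary like the other groups.

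Per kilobase of the median coding transcript, the ferritin genes led: averaged over libraries, Fth1 reached 2303 CPM per kb and Ftl1 899 CPM per kb. Hmox1 followed at 360 CPM per kb, and Slc11a1 at 83.8, while Ncoa4 at 17.2, Ireb2 at 8.9 and Slc40a1 at 3.15 CPM per kb stood lowest. Blvrb, Blvra and Tfrc lay between, at 76, 53.7 and 51.1 CPM per kb, and their order among themselves changed when all annotated exons were used as the length. Fth1 and Ftl1 mRNA have near-identical copies in the genome. In the table, the rows Ftl1-ps1 and Ftl2-ps held 3.9% and 6.73% of the counts of Ftl1, Fth-ps2 held 0.0556% of those of Fth1, and Ncoa4-ps held 24.7% of those of Ncoa4. Ftl1 also overlaps Gm10252 on the opposite strand, which held 804 counts over all libraries. How shared reads were assigned was not stated, so the values of Ftl1 and Ncoa4 are less certain than those of the others.

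**Figure D2:**
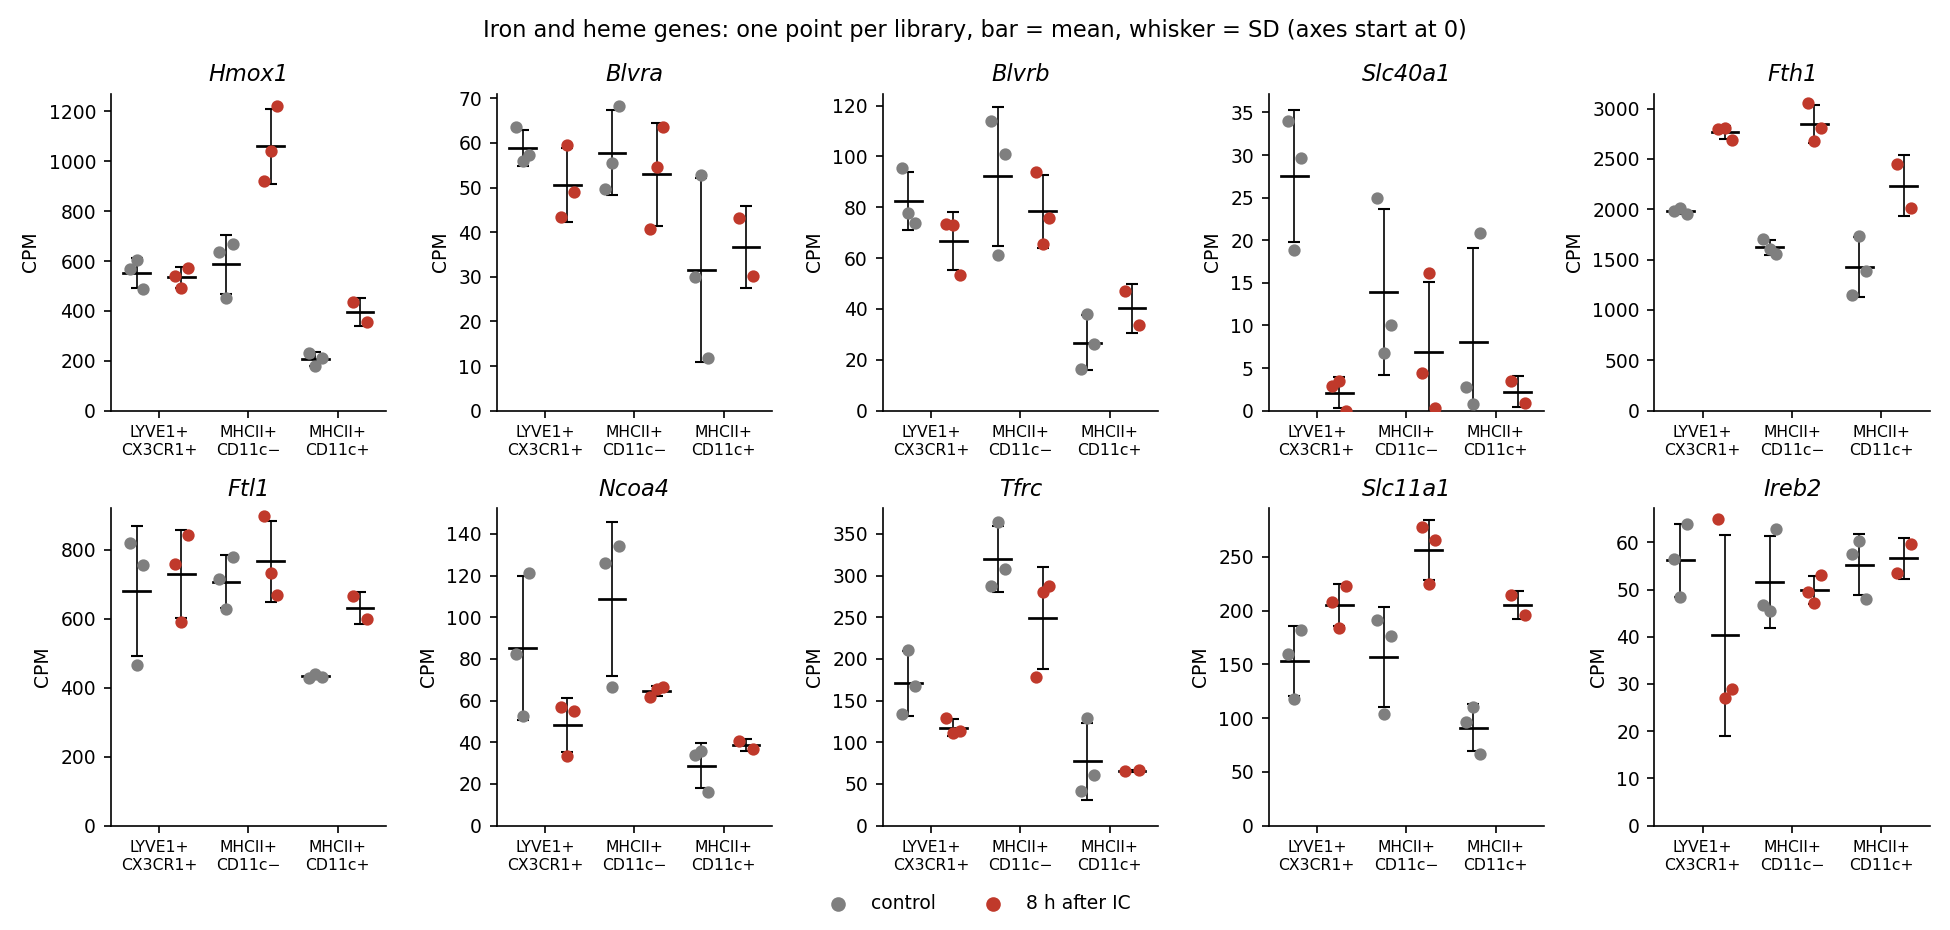
CPM of the 10 genes in each library by subset, grey for control and red for 8 h after IC, with the mean as a bar and the SD as a whisker (n = 3, or 2 for MHCII+CD11c+ after IC); each axis starts at 0, where the whiskers of Slc40a1 are cut. Hmox1 rises in both MHCII+ subsets and stays near its control level in LYVE1+CX3CR1+ macrophages, while the red points of Fth1 lie above the grey ones in all 3 subsets.

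The first question was what 8 h of circulating IC did to these genes in each subset. Hmox1 and Fth1 rose in MHCII+CD11c- macrophages, and Hmox1 and Slc11a1 rose in MHCII+CD11c+ macrophages. In LYVE1+CX3CR1+ macrophages no gene of the 10 passed the test, although Slc40a1 was under its control range in every library. Counted by edgeR at an adjusted p under 0.05, 0 of 10 genes were called in LYVE1+CX3CR1+ macrophages, where 0.963% of all tested genes were. In the same fit, 3 of 10 had an unadjusted p under 0.05, beside 2159 of all 15272 tested genes. DESeq2 called 1 of 10, beside 433 of 14855 genes, and limma voom called 0, beside 46 of 15272. In MHCII+CD11c- macrophages 2 of 10 were called, beside 0.701% of all genes (0.543% higher), and in MHCII+CD11c+ macrophages 2 of 10, beside 0.216% (0.216% higher). All 4 calls were increases. Every IC library lay above every control for 2 genes in LYVE1+CX3CR1+ macrophages (4.95% of all genes), 3 in MHCII+CD11c- (8.72%) and 5 in MHCII+CD11c+ (14.1%). The reverse held for 3 (16.7%), 2 (8.48%) and 0 (9.02%) of the 10. The median log2 fold change of the 10 genes was, in the same order of subsets, -0.26, -0.09 and 0.48, beside -0.14, -0.03 and 0.01 over all tested genes. The median of all genes in LYVE1+CX3CR1+ macrophages moved to -0.015 at equal depth. Without the 3 libraries with high Vsig4, the counts were 1, 2 and 3, with Fth1 gained in LYVE1+CX3CR1+ and in MHCII+CD11c+ macrophages. Calls over all genes rose in that fit too, to 196, 268 and 209 of 14713, from 147, 107 and 33 of 15272. Without the 4, they were 0, 2 and 1, with neither gain and with Hmox1 lost in MHCII+CD11c+ macrophages.

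Heme breakdown starts with Hmox1 (chr8:75093621-75100589, plus strand), the inducible heme oxygenase. In MHCII+CD11c- macrophages its level was 637, 453 and 669 CPM in controls and 920, 1041 and 1220 CPM after IC. All IC libraries were above all controls, and IC library 3 was the highest of the 17. The group means were 586 ± 117 and 1060 ± 151 CPM (SD, n = 3 each), a log2 fold change of 0.85 ± 0.17 (SE; adjusted p = 0.0153). The call was lost in a fit of only these groups (adjusted p = 0.106) and without control library 1 or 2 (0.056 each), IC library 2 (0.0544) or IC library 3 (0.146).

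In MHCII+CD11c+ macrophages Hmox1 went from 232, 178 and 211 CPM in controls to 435 and 355 CPM after IC. Both IC libraries lay above the controls and below every control library of the other subsets. The log2 fold change was 0.93 ± 0.19 (adjusted p = 0.0352), but the adjusted p was 0.0509 to 1 when any of 11 libraries was left out, which were all 5 of this subset, LYVE1+CX3CR1+ control 1 and IC 1 and 3, and MHCII+CD11c- control 1 and 3 and IC 2. It was also over the threshold with RLE size factors (0.136), at equal depth (0.0689), in a fit of only these groups (0.396) and without the 4 libraries with high Vsig4 (0.259). LYVE1+CX3CR1+ macrophages had 567, 605 and 486 CPM in controls and 541, 491 and 571 CPM after IC, which gave -0.05 ± 0.17 on the log2 scale (adjusted p = 0.951; 2 SE either side spans -0.39 to 0.30). Here the groups overlapped fully.

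Set in order, mean Hmox1 was highest in MHCII+CD11c- macrophages after IC (1060 CPM), followed by MHCII+CD11c- controls (586 CPM), LYVE1+CX3CR1+ controls (553 CPM) and LYVE1+CX3CR1+ macrophages after IC (534 CPM), which overlapped one another. MHCII+CD11c+ macrophages came last, at 395 CPM after IC and 207 CPM in controls. Within a library, the ratio of Hmox1 counts to those of the constitutive enzyme gene Hmox2 does not depend on library scaling. It was 5.33 ± 0.547 in MHCII+CD11c- controls and 10.3 ± 2.36 after IC (SD, n = 3 each), with no overlap. In MHCII+CD11c+ macrophages it was 4.57 ± 1.46 and 4.81 ± 0.673 (n = 3 and 2), with overlap, since Hmox2 was also higher after IC there, at 81.9 to 82.3 CPM against 33.7 to 61.5 CPM in controls.

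**Figure D3:**
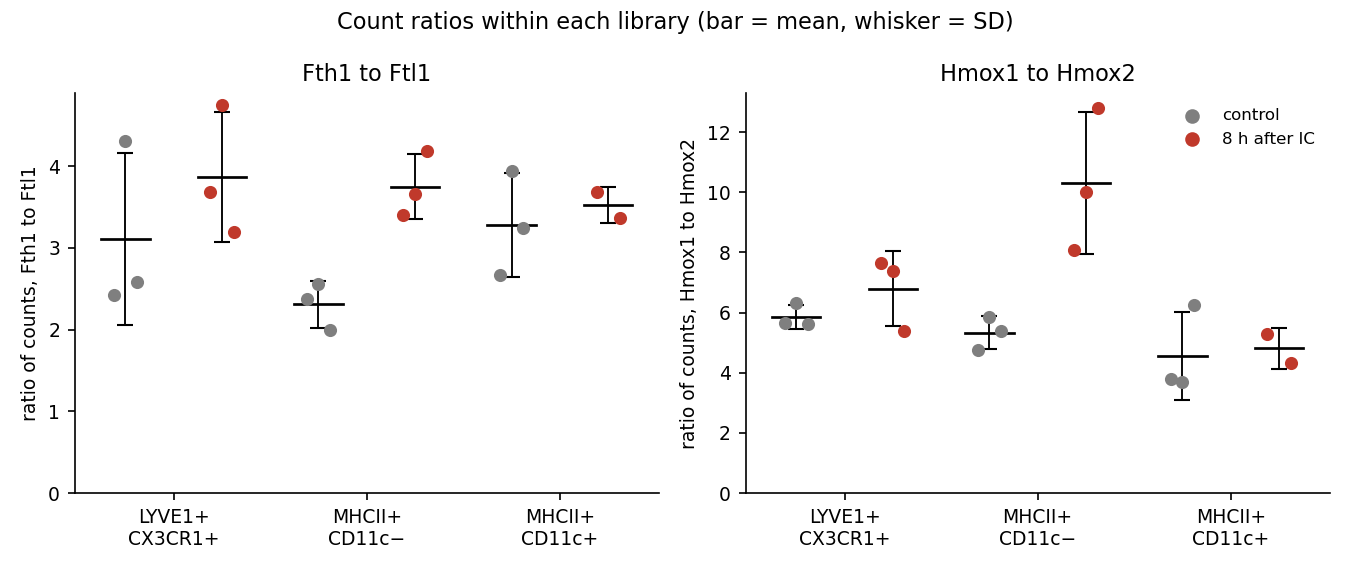
Ratios of counts within each library, Fth1 to Ftl1 on the left and Hmox1 to Hmox2 on the right, by subset, grey for control and red for 8 h after IC, with the mean as a bar and the SD as a whisker (n = 3, or 2 for MHCII+CD11c+ after IC). Both ratios have no overlap between control and IC in MHCII+CD11c- macrophages, and they overlap in the other subsets.

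Biliverdin, the product of heme oxygenase, is reduced to bilirubin by the enzymes of Blvra (chr2:127070665-127097084, plus strand) and Blvrb (chr7:27447978-27466144, plus strand). Neither passed the test for IC in any subset. Blvrb had 95.6, 77.8 and 74 CPM in LYVE1+CX3CR1+ controls and 73.4, 73 and 53.5 CPM after IC, which did not overlap but gave a log2 fold change of -0.31 ± 0.28 (adjusted p = 0.695). For Blvrb in MHCII+CD11c+ macrophages it was 0.59 ± 0.32 (adjusted p = 1), from 16.2, 37.9 and 26.1 CPM in controls and 46.9 and 33.5 CPM after IC. The log2 fold changes of Blvra were -0.22 ± 0.34, -0.13 ± 0.34 and 0.20 ± 0.38 in the same order of subsets as above. In MHCII+CD11c- macrophages, where Hmox1 rose, Blvrb was at -0.23 ± 0.28 and Blvra at -0.13 ± 0.34 beside it.

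The ferritin heavy chain, which oxidizes iron for storage, is encoded by Fth1 (chr19:9980598-9985098, plus strand). In MHCII+CD11c- macrophages Fth1 was 1702, 1608 and 1552 CPM in controls and 3053, 2680 and 2808 CPM after IC. The log2 fold change was 0.81 ± 0.15 (adjusted p = 0.00612). The call was lost without control library 3 (adjusted p = 0.0585), with surrogate variables (0.0546) and in a fit of only these groups (0.0623). In LYVE1+CX3CR1+ macrophages the values were 1980, 2016 and 1956 CPM in controls and 2792, 2811 and 2685 CPM after IC, and their log2 fold change of 0.48 ± 0.15 did not pass (adjusted p = 0.118). DESeq2 (0.0114), a fit of only these groups (0.0496) and the fit without the 3 libraries with high Vsig4 (0.0225) called it. MHCII+CD11c+ macrophages had 1148, 1735 and 1391 CPM in controls and 2447 and 2017 CPM after IC. Their log2 fold change was 0.65 ± 0.16 (adjusted p = 0.139), which limma voom called (0.00415), as did the fits without MHCII+CD11c+ control library 2 (0.00925) and without all 3 libraries with high Vsig4 (0.00309). Without the 4 libraries with high Vsig4, Fth1 was not called in either of these subsets (0.46 ± 0.12 and 0.68 ± 0.18, adjusted p = 0.0589 and 0.111). In each subset, every IC library thus lay above every control.

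The light chain gene Ftl1 (chr7:45457944-45459884, minus strand), whose product helps to nucleate the iron core, did not pass the test for IC in any subset. Its log2 fold change was 0.10 ± 0.19 in LYVE1+CX3CR1+ macrophages, 0.11 ± 0.19 in MHCII+CD11c- macrophages and 0.55 ± 0.21 in MHCII+CD11c+ macrophages (adjusted p = 0.881, 0.937 and 0.737). In the last subset the libraries were apart, with 429, 440 and 430 CPM in controls and 665 and 599 CPM after IC. The ratio of Fth1 to Ftl1 counts within a library was 2.31 ± 0.29 in MHCII+CD11c- controls and 3.75 ± 0.403 after IC, without overlap. It was 3.11 ± 1.05 and 3.87 ± 0.797 in LYVE1+CX3CR1+ macrophages and 3.28 ± 0.633 and 3.52 ± 0.221 in MHCII+CD11c+ macrophages (SD, n = 3, or 2 for the last), and both of these pairs overlapped. Adding the ferritin copies lowered all 6 ratios, to 2.11 in MHCII+CD11c- controls and 3.42 after IC, for example.

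Ferritin is delivered to lysosomes for iron release by the cargo receptor NCOA4. Ncoa4 (chr14:32159865-32179855, plus strand) had 126, 66.4 and 134 CPM in MHCII+CD11c- controls and 61.9, 65.7 and 66.3 CPM after IC, a log2 fold change of -0.75 ± 0.32 (adjusted p = 0.402). The low control library, number 2, lay just above the IC libraries. In LYVE1+CX3CR1+ macrophages it was -0.82 ± 0.32 (adjusted p = 0.23), and in MHCII+CD11c+ macrophages 0.42 ± 0.36 (adjusted p = 1). Adding the counts of the pseudogene row gave -0.85, -0.70 and 0.28.

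Ferroportin, the only known cellular iron exporter, is encoded by Slc40a1 (chr1:45908068-45926523, minus strand). LYVE1+CX3CR1+ controls had 216, 70 and 213 counts, or 34, 18.9 and 29.7 CPM, and the libraries after IC had 10, 11 and 0 counts, or 2.93, 3.46 and 0 CPM. All 3 IC libraries were thus far under all controls, and for the library at 0 the limit of 3 counts corresponds to 1.24 CPM. Group means were 27.6 ± 7.78 and 2.13 ± 1.86 CPM (SD, n = 3 each). The log2 fold change of -3.62 ± 1.28 did not pass the test over all genes (adjusted p = 0.209, unadjusted 0.0127). Over the alternatives the adjusted p ran from 0.00451 to 0.384, with a call from surrogate variables alone. The other subsets spread widely: MHCII+CD11c- libraries had 25, 6.72 and 10 CPM in controls and 4.43, 16.1 and 0.275 CPM after IC, and MHCII+CD11c+ libraries had 2.77, 0.743 and 20.8 CPM in controls and 3.53 and 0.916 CPM after IC. In both, control and IC overlapped, and the log2 fold changes were -0.99 ± 1.13 and -1.77 ± 1.38 (adjusted p = 0.893 and 1).

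Slc11a1 (chr1:74375195-74386062, plus strand) encodes NRAMP1, which moves iron and manganese out of the phagosome. MHCII+CD11c+ macrophages had 96.6, 110 and 66.9 CPM in controls and 214 and 196 CPM after IC, a log2 fold change of 1.17 ± 0.24 (adjusted p = 0.0395). The call was lost, at an adjusted p of 0.0514 to 0.67, without any of 13 libraries, which were MHCII+CD11c+ control 1 and 3 and IC 1 and 2, LYVE1+CX3CR1+ control 1 and 3 and IC 1, 2 and 3, and MHCII+CD11c- control 3 and IC 1, 2 and 3. It was lost as well with RLE size factors (0.0674), surrogate variables (0.163), equal depth (0.0681) and a fit of only these groups (0.252). MHCII+CD11c- macrophages had 191, 104 and 176 CPM in controls and 278, 225 and 266 CPM after IC, and LYVE1+CX3CR1+ macrophages 160, 118 and 182 against 208, 184 and 223 CPM. In both, the IC libraries lay above the controls, and the log2 fold changes of 0.71 ± 0.22 and 0.42 ± 0.22 did not pass (adjusted p = 0.184 and 0.412).

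Tfrc and Ireb2 were not called for IC in any subset. Tfrc (chr16:32608920-32632794, plus strand), the transferrin receptor, had 288, 364 and 308 CPM in MHCII+CD11c- controls and 178, 280 and 288 CPM after IC. The highest IC library and the lowest control were both at 288 CPM, and the log2 fold change was -0.36 ± 0.29 (adjusted p = 0.787). It was -0.53 ± 0.29 in LYVE1+CX3CR1+ macrophages (adjusted p = 0.441), where 134, 211 and 167 CPM in controls stood above 129, 111 and 113 CPM after IC, and -0.24 ± 0.33 in MHCII+CD11c+ macrophages (adjusted p = 1). Ireb2 (chr9:54863789-54912530, plus strand), which encodes iron regulatory protein 2, one of the proteins known to bind such hairpins, had log2 fold changes of -0.47 ± 0.28, -0.05 ± 0.28 and 0.03 ± 0.31. In LYVE1+CX3CR1+ macrophages after IC its libraries were split, at 64.9, 27.1 and 29 CPM.

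**Figure D4:**
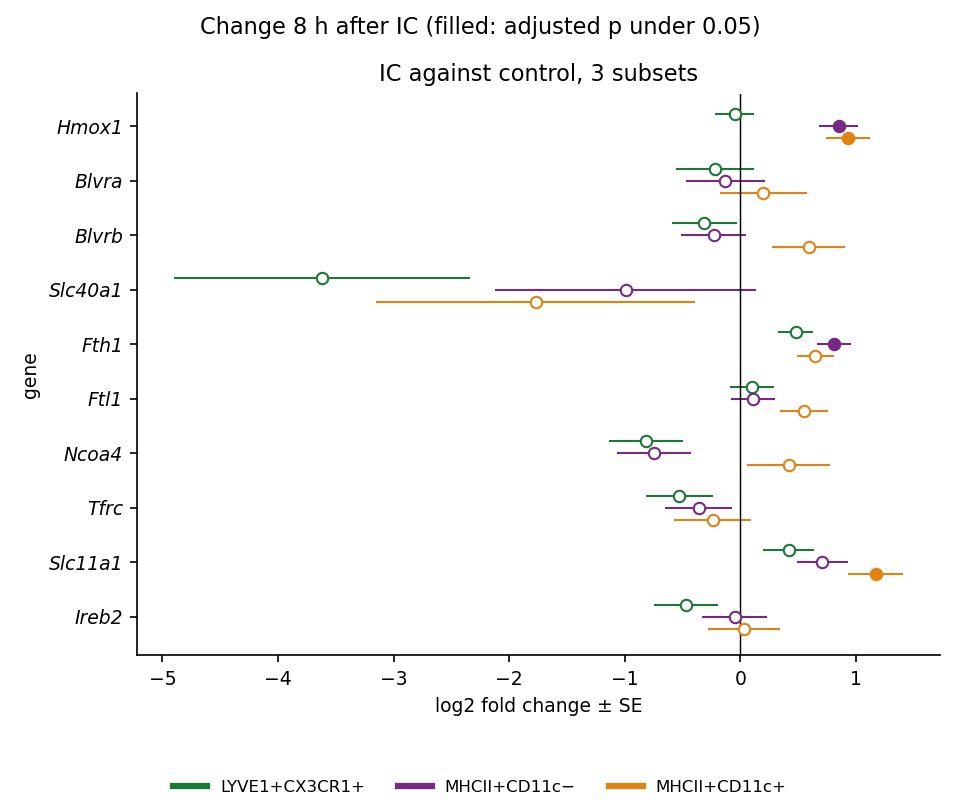
Log2 fold change from control to 8 h after IC (horizontal axis) for each of the 10 genes (vertical axis) by subset (colour), with the SE as a line; filled points have an adjusted p under 0.05 by edgeR. Hmox1 is filled in both MHCII+ subsets, Fth1 in MHCII+CD11c- and Slc11a1 in MHCII+CD11c+ macrophages, and Slc40a1 has the widest errors.

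Markers of other cells were measured beside these changes. The summed level of the 5 red blood cell genes in the table, of 7 listed, was 0 to 24.9 CPM over all libraries. Hba-a1, a hemoglobin gene, reached 15.4 CPM at most, in MHCII+CD11c- IC library 3, which also had the highest Hmox1. The 6 neutrophil genes summed to 74.3 to 252 CPM in MHCII+CD11c+ controls and 25.6 to 29.7 CPM after IC, with 2 of the 6 at 0 in both IC libraries. Csf3r made up most of the sum after IC, at 23.9 to 29.1 CPM, and its mean rose from 15.3 to 26.5 CPM. The means of S100a8 and S100a9 fell from 44.8 and 89.5 CPM to 0.551 and 0.147 CPM. The 7 macrophage genes summed to 7543 to 9163 CPM in MHCII+CD11c+ controls and 8000 to 10463 CPM after IC, and the 5 LYVE1+CX3CR1+ genes to 57.5 to 581 and 266 to 559 CPM. In MHCII+CD11c- macrophages the LYVE1+CX3CR1+ genes summed to 988 to 1721 CPM in controls and 1817 to 3293 CPM after IC, and the MHC class II genes to 16325 to 17607 and 11130 to 11574 CPM, although no gene of any marker list was called there. Among the LYVE1+CX3CR1+ genes, the mean of Lyve1 rose there from 852 to 2083 CPM, while that of Cx3cr1 fell from 100 to 70.5 CPM and the others were higher. LYVE1+CX3CR1+ libraries shifted too, all without overlap: the MHC class II genes went from 102 to 156 CPM in controls to 19.8 to 49.2 CPM after IC, with 3 of 4 called lower. Their LYVE1+CX3CR1+ genes summed to 3552 to 4385 and 5560 to 6516 CPM and their macrophage genes to 11156 to 13430 and 13678 to 15361 CPM, with none called. Members of these lists went both ways. Cx3cr1 fell from 333 to 528 CPM to 244 to 304 CPM and Folr2 from a mean of 122 to 104 CPM, while Lyve1 rose from 1955 to 3619 CPM. Mean Adgre1 fell from 692 to 550 CPM and Csf1r from 2849 to 2641 CPM, while Lyz2 rose from 6315 to 8019 CPM. The other genes of both lists had higher means after IC. The part of these shifts in the changes above was not tested. In bulk RNA, fewer cells of a type and less RNA per cell cannot be told apart.

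Averaged over the 3 subsets, 3 of the 10 genes were called, all higher after IC, beside 3.35% of all tested genes (1.7% higher). They were Fth1 (0.65 ± 0.09, adjusted p = 0.000103), Slc11a1 (0.76 ± 0.13, adjusted p = 0.0015) and Hmox1 (0.58 ± 0.10, adjusted p = 0.00185). All 3 calls held under each of the 28 alternatives run, with the highest adjusted p at 0.0045, 0.00647 and 0.0142, and 3 genes were also called without the 3 or the 4 libraries with high Vsig4. Without the 3 libraries, 866 of all 14713 tested genes were called in this average. For Hmox1 the average covers 2 subsets with increases and LYVE1+CX3CR1+ macrophages with -0.05. The model counts libraries of different subsets as separate samples. For the average over subsets, no alternative allowed for mice shared by same-numbered libraries of the same treatment. If such libraries share mice, the p-values of the average could be too small. Slc40a1 (-2.13 ± 0.74, adjusted p = 0.137) and Tfrc (-0.38 ± 0.18, adjusted p = 0.272) had negative averages that did not pass. Ftl1 averaged 0.25 ± 0.11, Ncoa4 -0.38 ± 0.19, Ireb2 -0.16 ± 0.17, Blvra -0.05 ± 0.20 and Blvrb 0.02 ± 0.17, at adjusted p values of 0.23 to 0.991. In the same average, 2 of 7 macrophage and 1 of 5 LYVE1+CX3CR1+ marker genes rose, and 3 of 4 MHC class II and 1 of 6 neutrophil genes fell.

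Whether the subsets differed in their response was tested directly as the difference between IC effects, and none of the 10 genes was called in any of the 3 pairs. The background was 0.0262% of all genes for LYVE1+CX3CR1+ against MHCII+CD11c-, 0.0327% for LYVE1+CX3CR1+ against MHCII+CD11c+ and 0% for the 2 MHCII+ subsets. In the same order, 1152, 1225 and 496 of all 15272 tested genes had an unadjusted p under 0.05 by edgeR. At an unadjusted p under 0.05, edgeR had 1, 4 and 1 of the 10 genes, while DESeq2 and limma voom called 0 in each pair, as did the fits without the 3 or the 4 libraries with high Vsig4. For Hmox1, the LYVE1+CX3CR1+ effect minus the MHCII+CD11c- effect was -0.90 ± 0.24 on the log2 scale (unadjusted p = 0.00116, adjusted p = 0.326), and minus the MHCII+CD11c+ effect -0.98 ± 0.26 (unadjusted p = 0.000881, adjusted p = 0.22). The MHCII+CD11c+ effect minus the MHCII+CD11c- effect was 0.08 ± 0.26, with the interval of 2 SE from -0.44 to 0.60. Among the other genes, the differences for LYVE1+CX3CR1+ against MHCII+CD11c- ran from -0.43 for Ireb2 to -0.01 for Ftl1, apart from Slc40a1 at -2.64 ± 1.67. Against MHCII+CD11c+ they ran from -1.24 for Ncoa4 to -0.17 for Fth1, with Slc40a1 at -1.86 ± 1.80. For MHCII+CD11c+ against MHCII+CD11c- they ran from -0.17 for Fth1 to 1.17 for Ncoa4, with Slc40a1 at -0.78 ± 1.73. All 10 differences were below 0 for LYVE1+CX3CR1+ against either other subset, but all genes tested were shifted the same way, with medians of -0.161 and -0.205. These medians became -0.030 and -0.039 with RLE size factors, so they moved with the scaling of the libraries. The medians of the 10 genes in these differences were -0.23 and -0.63.

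The second question was how the subsets differed in control mice. Hmox1, Blvrb, Tfrc, Ncoa4, Ftl1 and Slc11a1 were called lower in MHCII+CD11c+ controls than in both other control groups. Between LYVE1+CX3CR1+ and MHCII+CD11c+ controls, 7 of 10 genes were called, all higher in LYVE1+CX3CR1+ macrophages, beside 15.2% of all genes (7.83% higher). Between MHCII+CD11c+ and MHCII+CD11c- controls, 6 of 10 were called, all lower in MHCII+CD11c+ macrophages, beside 8.66% (4.99% lower). These comparisons share the MHCII+CD11c+ controls. Median log2 differences of the 10 genes were 1.01 and -0.85, beside 0.05 and -0.03 over all genes. Without the 3 libraries with high Vsig4, 8 and 7 genes were called, Blvra being added to both, and the counts were the same without the 4.

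LYVE1+CX3CR1+ controls exceeded MHCII+CD11c+ controls in Hmox1 by 1.42 ± 0.18 log2 units (adjusted p = 3.44e-06), and the log2 difference of MHCII+CD11c+ from MHCII+CD11c- controls was -1.50 ± 0.18 (adjusted p = 5.15e-06). Blvrb showed 1.62 ± 0.29 and -1.78 ± 0.29 (adjusted p = 0.000273 and 0.000241), with 16.2 to 37.9 CPM in MHCII+CD11c+ controls, 74 to 95.6 CPM in LYVE1+CX3CR1+ controls and 61.3 to 114 CPM in MHCII+CD11c- controls. Both enzymes kept their calls under all 29 alternatives. Blvra, at 30, 52.8 and 11.7 CPM in MHCII+CD11c+ controls against 49.7 to 68.2 CPM in the others, did not pass (0.88 ± 0.34 and -0.85 ± 0.34, adjusted p = 0.0868 and 0.136). Without MHCII+CD11c+ control library 2, its adjusted p was 0.00355 and 0.00746.

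Tfrc was 41.9, 129 and 60.1 CPM in MHCII+CD11c+ controls, 134, 211 and 167 CPM in LYVE1+CX3CR1+ controls and 288, 364 and 308 CPM in MHCII+CD11c- controls. No pair of these groups overlapped, and the high MHCII+CD11c+ library, number 2, is one of those with high Vsig4. The log2 difference between MHCII+CD11c+ and MHCII+CD11c- controls was -2.05 ± 0.30 (adjusted p = 0.000165) and was called under all 29 alternatives. Between LYVE1+CX3CR1+ and MHCII+CD11c+ controls it was 1.14 ± 0.30 (adjusted p = 0.0114), and 1.70 ± 0.22 without the 3 libraries with high Vsig4. That call was lost without LYVE1+CX3CR1+ control 2 (0.0603) or MHCII+CD11c+ control 3 (0.0657), with surrogate variables (0.0868) and in a fit of only these groups (0.0813).

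Ncoa4 was 34, 35.9 and 16.3 CPM in MHCII+CD11c+ controls, against 52.4 to 121 CPM in LYVE1+CX3CR1+ and 66.4 to 134 CPM in MHCII+CD11c- controls. Its log2 differences were 1.56 ± 0.33 and -1.90 ± 0.33 (adjusted p = 0.00144 and 0.00046), and only surrogate variables ended a call, the latter (0.113). Among the weaker differences, Ftl1 gave 0.65 ± 0.19 and -0.71 ± 0.19 (adjusted p = 0.0182 and 0.0169), Slc11a1 0.75 ± 0.22 and -0.78 ± 0.22 (0.0226 and 0.0281) and Fth1 0.48 ± 0.15 for LYVE1+CX3CR1+ only (0.0268). Calls of these 3 genes were lost with surrogate variables in every case. They were lost without single libraries too: Ftl1 without LYVE1+CX3CR1+ control 1 or 3 in the first comparison, without MHCII+CD11c- control 1 or 3 in the second, and without MHCII+CD11c+ control 1 or 3 in both (0.0567 to 0.183). Slc11a1 lost them without LYVE1+CX3CR1+ control 1 or 3, MHCII+CD11c- control 1 or 3, or MHCII+CD11c+ control 3, and in the second comparison also control 1 (0.0624 to 0.2). Fth1 lost its call without any of 10 libraries (0.053 to 0.17), namely any LYVE1+CX3CR1+ control, LYVE1+CX3CR1+ IC 2 or 3, MHCII+CD11c- control 3, MHCII+CD11c+ control 1 or 3, or either MHCII+CD11c+ IC library.

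LYVE1+CX3CR1+ and MHCII+CD11c- controls differed in 0 of the 10 genes by edgeR, beside 1.56% of all genes. 1 gene, Tfrc, had an unadjusted p under 0.05, beside 1564 of all 15272 tested genes. DESeq2 and limma voom each called Tfrc, beside 510 of 13082 and 977 of 15272 genes. Its log2 difference was -0.91 ± 0.29 (adjusted p = 0.168), and it was called without MHCII+CD11c+ control 2 (0.0157) and without the 3 (0.0115) or the 4 (0.019) libraries with high Vsig4. For Hmox1 the difference was -0.09 ± 0.17, with the interval of 2 SE from -0.43 to 0.26. For Slc40a1 it was 0.99 ± 1.10 (adjusted p = 0.941), and between LYVE1+CX3CR1+ and MHCII+CD11c+ controls 1.83 ± 1.15 (adjusted p = 0.359), which limma voom (3.40, 0.0125), surrogate variables (4.26, 0.000115) and the fit without MHCII+CD11c+ control 3 (3.97, 0.0452) called. Its log2 difference of MHCII+CD11c+ from MHCII+CD11c- controls was -0.84 ± 1.14 (adjusted p = 0.747). Slc40a1 in LYVE1+CX3CR1+ controls, at 18.9 to 34 CPM, overlapped both other control groups, whose highest libraries had 25 and 20.8 CPM. For LYVE1+CX3CR1+ against MHCII+CD11c- controls the other genes of the 10 were not called either, with Fth1 at 0.29 ± 0.15 and no overlap, Ncoa4 at -0.34 ± 0.31, Blvrb at -0.16 ± 0.28, Ireb2 at 0.13 ± 0.28, Ftl1 at -0.06 ± 0.19, Slc11a1 at -0.03 ± 0.22 and Blvra at 0.03 ± 0.34 (adjusted p = 0.515 to 0.997). MHCII+CD11c+ controls were not called against MHCII+CD11c- controls for Fth1 (-0.19 ± 0.15, adjusted p = 0.52) or Ireb2 (0.10 ± 0.28, adjusted p = 0.89). Ireb2 was at 0.02 ± 0.28 for LYVE1+CX3CR1+ against MHCII+CD11c+ controls (adjusted p = 0.974).

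Beside these differences, 6 of the 7 macrophage marker genes were called lower in MHCII+CD11c+ controls than in each other control group. Csf1r, the receptor for macrophage colony-stimulating factor, had 670 to 714 CPM there against 1725 to 3361 CPM in the other controls. The neutrophil genes summed to 74.3 to 252 CPM in MHCII+CD11c+ controls, 29.2 to 39.8 CPM in LYVE1+CX3CR1+ controls and 39.8 to 196 CPM in MHCII+CD11c- controls. In LYVE1+CX3CR1+ controls Csf3r made up most of this sum, at 29.2 to 32.8 CPM. Mean Csf3r was lowest in MHCII+CD11c+ controls, at 15.3 CPM against 31.2 CPM in LYVE1+CX3CR1+ and 49.3 CPM in MHCII+CD11c- controls. The other neutrophil genes had their highest control means in MHCII+CD11c+ macrophages. Of the 6, 2 were called higher there than in LYVE1+CX3CR1+ controls. Against MHCII+CD11c- controls, 0 were called higher and 1 lower. The part of these markers in the lower levels of the iron and heme genes was not tested.

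**Figure D5:**
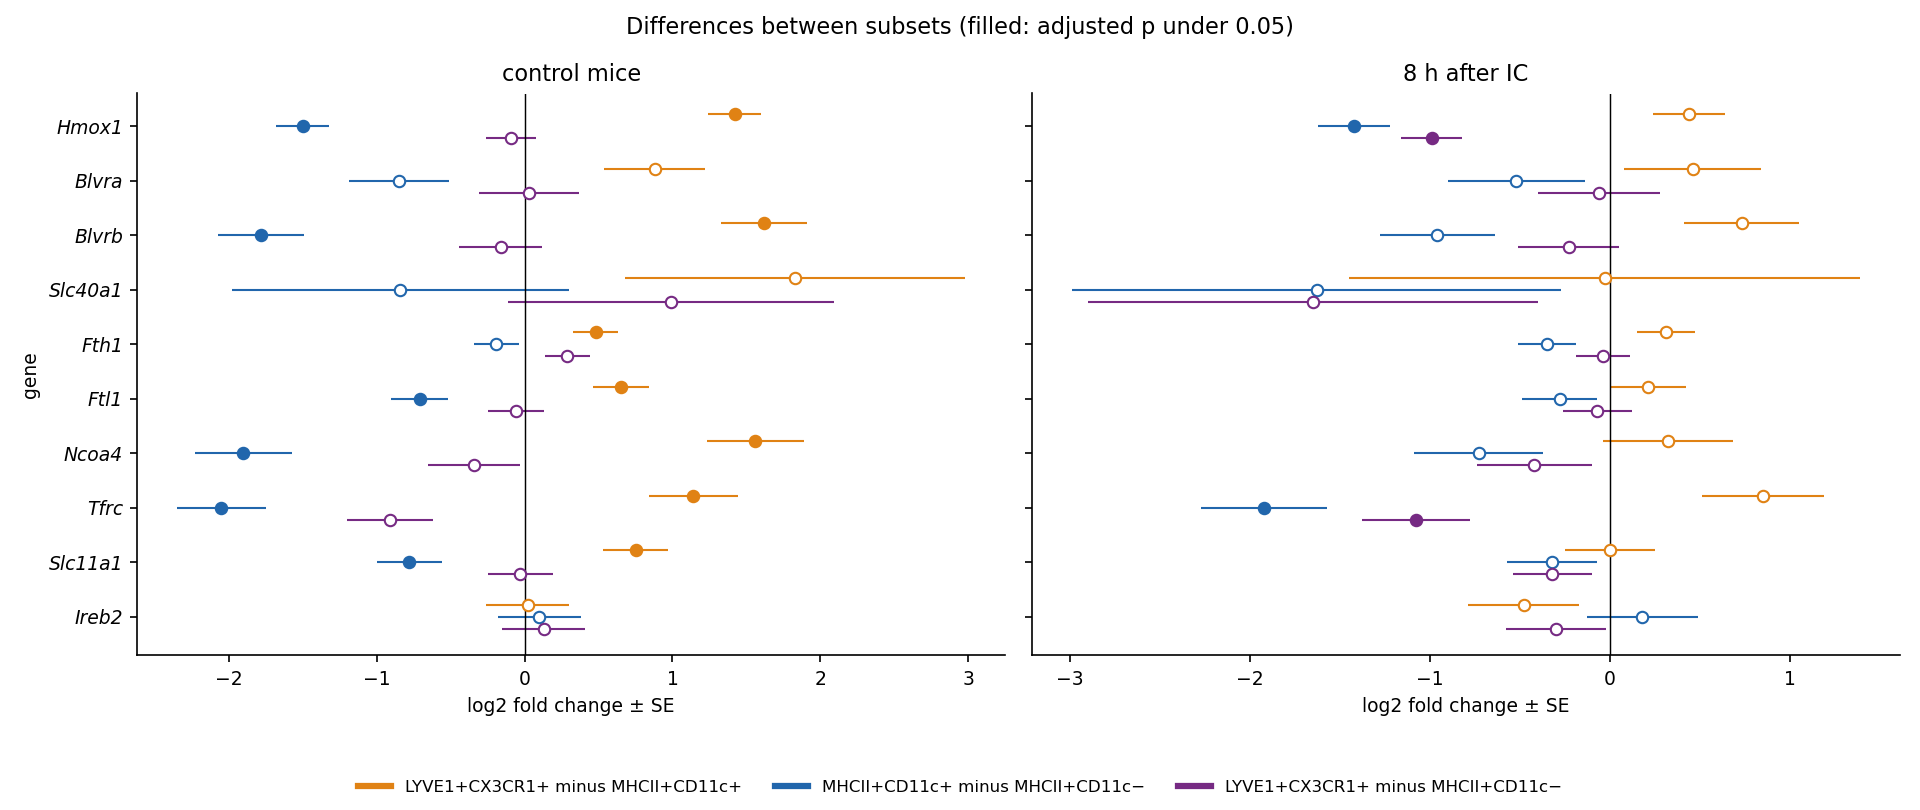
Log2 fold differences between subsets (horizontal axis) for each of the 10 genes (vertical axis), in control mice on the left and 8 h after IC on the right, with the SE as a line and the pair of subsets as colour; filled points have an adjusted p under 0.05 by edgeR. In controls, 7 points of LYVE1+CX3CR1+ minus MHCII+CD11c+ and 6 of MHCII+CD11c+ minus MHCII+CD11c- are filled, and after IC only points of Hmox1 and Tfrc are.

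After IC, Hmox1 and Tfrc were the genes of the 10 called between subsets. MHCII+CD11c- macrophages had the highest level of both. LYVE1+CX3CR1+ against MHCII+CD11c- macrophages had 2 of 10 called, both lower, beside 5.54% of all genes (4.79% lower). Hmox1 was at -0.99 ± 0.17 (adjusted p = 0.00119), a call that held under all 29 alternatives. Tfrc was at -1.08 ± 0.30 (adjusted p = 0.0371), with 129, 111 and 113 CPM against 178, 280 and 288 CPM. That call was lost with no filter on low counts, with limma voom (0.0909), with surrogate variables (0.122) and without any of 10 libraries, which were LYVE1+CX3CR1+ control 3 and IC 1, 2 and 3, MHCII+CD11c- control 1 and 3 and IC 2 and 3, and both MHCII+CD11c+ IC libraries (0.0507 to 0.139). The other 8 genes had adjusted p values of 0.424 to 0.946. For them the log2 differences were -1.65 ± 1.25 for Slc40a1, -0.42 ± 0.32 for Ncoa4, -0.32 ± 0.22 for Slc11a1, -0.30 ± 0.28 for Ireb2, -0.23 ± 0.28 for Blvrb, -0.07 ± 0.19 for Ftl1, -0.06 ± 0.34 for Blvra and -0.04 ± 0.15 for Fth1.

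MHCII+CD11c+ against MHCII+CD11c- macrophages after IC had 2 of 10 called, both lower, beside 4.03% of all genes (1.75% lower). Hmox1 was at -1.42 ± 0.20 (adjusted p = 0.000126), called under all 29 alternatives, and Tfrc at -1.92 ± 0.35 (adjusted p = 0.00239), lost without MHCII+CD11c+ IC library 2 (0.0638). Blvrb was at -0.96 ± 0.32 (adjusted p = 0.105), without overlap, and was called by limma voom (0.0133) and in a fit of only these groups (0.0354). Fth1, at -0.35 ± 0.16 (adjusted p = 0.329), was called by limma voom (0.0365). The remaining 6 were Slc40a1 at -1.63 ± 1.36, Ncoa4 at -0.73 ± 0.36, Blvra at -0.52 ± 0.38, Slc11a1 at -0.32 ± 0.25, Ftl1 at -0.28 ± 0.21 and Ireb2 at 0.18 ± 0.31 (adjusted p = 0.374 to 0.917).

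LYVE1+CX3CR1+ against MHCII+CD11c+ macrophages after IC had 0 of 10 called by edgeR, beside 11.9% of all genes. 3 genes had an unadjusted p under 0.05, beside 3943 of all 15272 tested genes. DESeq2 called 1 of the 10 and limma voom 0. Hmox1 was 541, 491 and 571 CPM against 435 and 355 CPM, still apart, at 0.44 ± 0.20 (adjusted p = 0.157). Tfrc was at 0.85 ± 0.34 (adjusted p = 0.115) and was called without MHCII+CD11c+ control 1 (0.0479) or 2 (0.0184), and Ireb2, at -0.48 ± 0.31 (adjusted p = 0.354), without LYVE1+CX3CR1+ IC 1 (0.0212). Blvrb was at 0.73 ± 0.32, Blvra at 0.46 ± 0.38, Ncoa4 at 0.32 ± 0.36, Fth1 at 0.31 ± 0.16, Ftl1 at 0.21 ± 0.21, Slc11a1 at -0.00 ± 0.25 and Slc40a1 at -0.03 ± 1.42 (adjusted p = 0.148 to 1), and surrogate variables called Blvra (1.20, adjusted p = 0.0125). Without the 3 libraries with high Vsig4, the 3 comparisons after IC had 2, 2 and 1 genes called, in the order given here, and without the 4 they had 2, 2 and 0.

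A wider list of 47 other genes of iron and heme metabolism, of which 43 were tested, gave the surroundings of these changes. For IC, 1 of 43 rose in MHCII+CD11c- macrophages, beside 0.701% of all tested genes called (0.543% higher). In LYVE1+CX3CR1+ and MHCII+CD11c+ macrophages 0 were called, beside 0.963% and 0.216% of all genes. That gene was Slc39a14, which encodes ZIP14, a carrier that imports iron not bound to transferrin. It went from 16.4, 31.3 and 11.7 CPM in controls to 64.1, 53.2 and 71 CPM after IC, a log2 fold change of 1.64 ± 0.33 (adjusted p = 0.0153), and its average over the subsets was 1.01 ± 0.19 (adjusted p = 0.00374), called under all 28 alternatives. The call in MHCII+CD11c- macrophages was lost without control library 1 (0.109), control library 3 (0.12) or IC library 3 (0.105).

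Among controls, LYVE1+CX3CR1+ macrophages had 7 of the 43 above and 2 below MHCII+CD11c+ macrophages, beside 15.2% of all tested genes in either direction (7.83% higher). MHCII+CD11c+ macrophages in turn had 4 of the 43 below and 0 above MHCII+CD11c- macrophages, beside 8.66% of all genes in either direction (4.99% lower). In either direction, 4 of 43 is close to the share of all genes, so the genes named here are a description and not a trait of the list. Those that were lower in MHCII+CD11c+ macrophages than in both others were Cd163, the scavenger receptor for hemoglobin bound to haptoglobin, Hmox2, Slc39a8, a metal importer, and Cp, which encodes the ferroxidase ceruloplasmin. Cd163 averaged 577 ± 180 CPM in MHCII+CD11c+, 1210 ± 73.3 CPM in LYVE1+CX3CR1+ and 1747 ± 533 CPM in MHCII+CD11c- controls (SD, n = 3 each). Cp had 14.7, 9.85 and 1.89 CPM in MHCII+CD11c+ controls, against 42.4 to 70.3 and 57.1 to 117 CPM in the other controls. Slc39a8 was low in all groups, with at most 0.557 CPM in MHCII+CD11c+ controls and 12.4 ± 7.8 CPM in LYVE1+CX3CR1+ controls. Its call against MHCII+CD11c- controls was lost without MHCII+CD11c- control 1 or 2 or MHCII+CD11c+ control 1 or 3 (0.0541 to 0.105). LYVE1+CX3CR1+ controls also had more Lrp1, the receptor for heme bound to hemopexin, than both other control groups (1.04 ± 0.25 and 1.06 ± 0.25, adjusted p = 0.0346 and 0.00504). The first of these was lost without any LYVE1+CX3CR1+ control, MHCII+CD11c- control 1 or 3, or either MHCII+CD11c+ IC library (0.0679 to 0.203).

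The wider list held 4 more calls in the comparison of LYVE1+CX3CR1+ with MHCII+CD11c+ controls: Slc46a1 and Mafg were higher in the former, and Flvcr1 and Lcn2 were lower. Slc46a1, a carrier of folate and heme, had 11.7 to 18.6 CPM against 0 to 3.34 CPM (adjusted p = 0.00209). Mafg, which encodes a small Maf protein that pairs with NRF2 or BACH1, had 128 to 171 against 71.7 to 107 CPM (0.87 ± 0.21, adjusted p = 0.00419), and both of these calls held under all 29 alternatives. Flvcr1, which encodes a heme exporter, had 17.4 to 21.9 against 35.3 to 45.9 CPM (-1.05 ± 0.32, adjusted p = 0.0277). That call was lost without any LYVE1+CX3CR1+ control or MHCII+CD11c+ control 1 or 3 (0.0585 to 0.108). Lcn2, which encodes the siderophore-binding protein lipocalin 2 and is also known from neutrophils, had 0 to 0.14 against 3.9 to 54.2 CPM (adjusted p = 0.017), and the call was lost without any LYVE1+CX3CR1+ control (0.0672 to 0.09). In MHCII+CD11c+ macrophages after IC, Lcn2 had 0 to 0.183 CPM. The part of the neutrophil genes, given above, in the level of Lcn2 was not tested.

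After IC, Cd163 separated all 3 subsets, at 2684 ± 81 CPM in MHCII+CD11c-, 1286 ± 226 CPM in LYVE1+CX3CR1+ (n = 3 each) and 433 ± 59 CPM in MHCII+CD11c+ macrophages (n = 2), and all 3 calls held under all 29 alternatives. Cp was highest in the same subset, at 106, 146 and 232 CPM, against 30.2 to 41.5 CPM in LYVE1+CX3CR1+ and 7.7 to 21.9 CPM in MHCII+CD11c+ macrophages (adjusted p = 0.0176 and 0.00394). The first of these calls was lost without LYVE1+CX3CR1+ IC 2 or 3 or MHCII+CD11c- IC 3 (0.0661 to 0.0762), and the second without MHCII+CD11c+ IC 2 (0.101). MHCII+CD11c- macrophages after IC thus had the highest mean of Hmox1, Cd163 and Cp of the 6 groups. After IC, LYVE1+CX3CR1+ macrophages had 3 of the 43 genes of the wider list below MHCII+CD11c- macrophages, beside 5.54% of all tested genes in either direction (4.79% lower). Against MHCII+CD11c+ macrophages they had 3 above and 2 below, beside 11.9% of all genes. In either direction, both of these counts are close to the share of all genes. MHCII+CD11c+ macrophages had 1 above and 2 below MHCII+CD11c- macrophages, beside 4.03% (1.75% lower). The 1 above was Nfe2l2, which encodes NRF2, a transcription factor that activates Hmox1 and ferritin genes (0.76 ± 0.20, adjusted p = 0.0306), in the subset with the lowest Hmox1. That call was lost without MHCII+CD11c- IC 1 (0.0636) or 3 (0.128) or MHCII+CD11c+ IC 2 (0.664). LYVE1+CX3CR1+ macrophages had less Nfe2l2 than MHCII+CD11c+ macrophages as well (-0.67 ± 0.20, adjusted p = 0.0313), lost without LYVE1+CX3CR1+ control 1, LYVE1+CX3CR1+ IC 1 or 2, or MHCII+CD11c+ IC 2 (0.0508 to 0.435).

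The remaining calls after IC involved LYVE1+CX3CR1+ macrophages. Trf, which encodes transferrin, had 0 to 2.07 CPM there against 3.55 to 10.1 CPM in MHCII+CD11c- macrophages (adjusted p = 0.0479). It lost its call in 18 of the 29 alternatives, 12 of them single libraries (0.051 to 0.144): any LYVE1+CX3CR1+ or MHCII+CD11c- control, LYVE1+CX3CR1+ IC 1 or 2, MHCII+CD11c- IC 2 or 3, or either MHCII+CD11c+ IC library. Against MHCII+CD11c+ macrophages, Slc46a1 had 15.7 to 35.1 compared with 1.47 to 3.82 CPM (adjusted p = 0.0135), lost without MHCII+CD11c+ IC 2 (0.227). Lrp1 was at 0.87 ± 0.28 in the same comparison (adjusted p = 0.0497), and leaving out any of 11 libraries ended that call (0.0514 to 0.402): any LYVE1+CX3CR1+ or MHCII+CD11c+ control, LYVE1+CX3CR1+ IC 1 or 3, MHCII+CD11c- control 1, or either MHCII+CD11c+ IC library. Iscu, which encodes the scaffold for iron-sulfur cluster assembly, had 22 to 38.1 against 57.9 to 63.2 CPM (-1.08 ± 0.34, adjusted p = 0.038). Its call was lost in 12 of the 29 alternatives, among them those without LYVE1+CX3CR1+ control 1, LYVE1+CX3CR1+ IC 1 or 3, or either MHCII+CD11c+ IC library (0.0536 to 0.203). Hamp, which encodes hepcidin, was at or below 1.44 CPM in every library and was not tested.

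Over the 17 libraries, the genes whose log2 CPM followed Hmox1 most closely were Phf20 (Pearson correlation 0.940), Ifi204 (0.936) and Ms4a4a (0.935). For Slc40a1 they were Spata25 (0.866), Bphl (0.842) and Hoga1 (0.832). Phf20 averaged 32 CPM in MHCII+CD11c+ controls, 84.8 CPM in LYVE1+CX3CR1+ controls and 121 CPM in MHCII+CD11c- macrophages after IC, the same lowest and highest groups as Hmox1. The points are libraries of 6 groups, so the correlations reflect the group differences described above, and the 3 genes beside Slc40a1 had 13.3 CPM or less in every group, where few counts set the values. Among the 10 genes, Fth1 and Slc11a1 had the highest correlation (0.81), Tfrc and Blvrb had 0.79, and Hmox1 and Slc40a1 had 0.08.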

How the data were processed

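Each of the 17 libraries was made from 5 ng of RNA with a kit for small amounts that keeps strand. The deposited values are counts, whole reads per gene symbol with no normalization; the authors trimmed reads with Trim Galore, aligned them to mm10 with HISAT2 and counted them with featureCounts. Versions, annotation, strand setting and treatment of multiply aligned reads were not given in the sources used here. The table has 1 further column that matched no label and sums to 0, which was not used.

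The main test was edgeR 4.0.16 (R 4.3.3): filterByExpr (minimum count 10), TMM library sizes, 1 model of 6 group means for all libraries (11 residual degrees of freedom) and quasi-likelihood F tests and Benjamini-Hochberg adjustment per contrast across all 15272 genes. A gene was called at an adjusted p under 0.05. Levels are CPM with TMM library sizes, as mean ± SD, and fold changes are on the log2 scale ± SE. Single values carry counting error beyond the SD, with 3 counts as the limit for a count of 0.

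Each library counted as 1 sample. Replicates of a group differed beyond counting noise (lowest chi-square per degree of freedom 6.77). This measure cannot tell separate mice from repeated preparations of 1 pool. The alternatives were RLE size factors, no filter, DESeq2 1.42.0, voom in limma 3.58.1 with quality weights, only the groups compared, 5 surrogate variables from sva 3.50.0, replicate blocks, equal depth, ferritin copies added and leaving out each library. Leaving out 3 or 4 libraries with high Vsig4 and adding Ncoa4-ps were chosen after seeing the data, which makes 29.

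The members and the gene and marker lists were chosen with earlier results of these data known. All members are named in every comparison; genes of the wider list are named where called with all libraries of the 2 groups apart. Symbols matched GENCODE M21 for 22237 genes (97.3%).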

Additional observations from a re-analysis of the deposited data

How the results depend on the processing

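Over 29 alternatives (28 for the average over subsets), none of the 3760 values turned its direction where a call was made. Of the 24 calls of the 10 genes, 11 held under all alternatives run, and over all settings 94 calls were lost and 37 gained. The 3 calls of the averaged IC effect and the absence of calls in the differences between IC effects held throughout. For the average, no alternative allowed for mice shared by same-numbered libraries of the same treatment. For IC in LYVE1+CX3CR1+ macrophages, 0 called genes became 1 with DESeq2, a fit of only the groups compared, surrogate variables or the 3 libraries with high Vsig4 left out. For IC in MHCII+CD11c- macrophages, 2 became 0 with only the groups compared and 1 with surrogate variables. For IC in MHCII+CD11c+ macrophages, 2 became 0 with RLE size factors, only the groups compared or equal depth, and 1 with surrogate variables or the 4 libraries with high Vsig4 left out. Between LYVE1+CX3CR1+ and MHCII+CD11c- controls, 0 became 1 with DESeq2, voom, only the groups compared, the replicate block or the 3 or the 4 libraries left out. Between LYVE1+CX3CR1+ and MHCII+CD11c+ controls, 7 became 4 with only the groups compared or surrogate variables, and between the MHCII+ controls 6 became 3 with surrogate variables. After IC, 2 became 1 between LYVE1+CX3CR1+ and MHCII+CD11c- macrophages with no filter, voom or surrogate variables, 0 became 1 between LYVE1+CX3CR1+ and MHCII+CD11c+ macrophages with DESeq2, only the groups compared, surrogate variables, the replicate block or the 3 libraries left out, and 2 became 4 between the MHCII+ subsets with voom. The cause was not tested. Leaving out 1 library gave 0 to 0, 1 to 2 and 0 to 2 called genes for IC, in the order of subsets above, 0 to 1, 4 to 8 and 4 to 7 between controls and 1 to 2, 0 to 1 and 1 to 2 after IC.

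The replicate numbers are shared between groups. In 0 of 15 pairs of groups was every correlation of same-numbered libraries over 0.1 (-0.153 to 0.286), so the main model took no pairs. These pairs of groups include controls against IC, which are different mice. Within a treatment every same-numbered correlation was positive, and highest between the MHCII+ control groups (0.08 to 0.286). Whether same-numbered libraries share mice was not stated. The replicate block joined control and IC libraries of a number for the IC effects, and libraries of the same treatment for the other comparisons. With the number as a block, Tfrc passed for LYVE1+CX3CR1+ against MHCII+CD11c- controls (-0.94, adjusted p = 0.0171) and for LYVE1+CX3CR1+ against MHCII+CD11c+ macrophages after IC (0.81, adjusted p = 0.0443), and no other call of the 10 genes changed. Over the alternatives the adjusted p of these comparisons ran from 0.00218 to 0.528 and from 0.00658 to 0.39. Counts over all genes varied more: for IC in LYVE1+CX3CR1+ macrophages edgeR called 147 genes, DESeq2 433 and voom 46, in MHCII+CD11c- macrophages 107, 286 and 168, and in MHCII+CD11c+ macrophages 33, 74 and 97. Depth limits Slc40a1 most, since 3 counts correspond to 0.414 to 1.3 CPM.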
